A study of Mus musculus with 2 samples.

Results

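The miR-15/16 loci Mir15a, Mir15b, Mir16-1, Mir16-2, Mir195a and Mir497, and the Pank-hosted loci Mir103-1, Mir103-2 and Mir107, were described in the left cerebral cortex of mice. They are 9 of the 2202 microRNA loci counted in each library. The loci were chosen by name, from their Ensembl gene IDs in the GENCODE M21 annotation, with Mir195a added as the cluster mate of Mir497. No measured value entered this rule, but earlier results of these data were known when the choice was made. The tissue came from females aged 14 days of the B6CASTF1/J strain, the F1 generation of a cross between C57BL/6J and CAST mice. According to the labels the 2 libraries are biological replicates of 1 group, with no treatment, no engineered allele and no other tissue. Small RNA below 30 nt was sequenced. Several females are mentioned in the label of replicate 1 and a single female in that of replicate 2, and the 2 libraries carry the same donor record. The libraries are therefore compared only as 2 samples of 1 condition, and part of their spread may be technical.

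MicroRNAs guide Argonaute proteins to messenger RNAs mainly through their seed, bases 2 to 8 of the mature strand. The miR-15/16 family is known for restraining cell-cycle genes and the survival gene Bcl2, and in humans the MIR15A and MIR16-1 locus is often lost in chronic lymphocytic leukaemia. In mouse heart, miR-195 and its relatives are known for their part in the arrest of cardiomyocyte division after birth. The microRNAs miR-103 and miR-107 lie in introns of the pantothenate kinase genes, whose enzymes start coenzyme A synthesis, and are known in mice as regulators of insulin sensitivity. In humans, miR-107 is known for its lower level in cortex in Alzheimer's disease.

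The mature strands show how closely the loci are related, and which of them a short read can tell apart. The usual guide strands, from RefSeq on GRCm38.p6, are printed 5′ to 3′ with the seed in capitals. All 9 loci had an entry.
miR-15a-5p: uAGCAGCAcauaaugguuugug
miR-15b-5p: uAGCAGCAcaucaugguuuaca
miR-16-5p: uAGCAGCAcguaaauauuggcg
miR-195a-5p: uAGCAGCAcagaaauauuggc
miR-497a-5p: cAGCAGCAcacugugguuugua
miR-103-3p: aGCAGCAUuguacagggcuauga
miR-107-3p: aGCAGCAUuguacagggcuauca
The 6 miR-15/16 loci share the seed AGCAGCA, and the 3 Pank-hosted loci share GCAGCAU. These seeds are related but not identical. The run AGCAGCA starts at base 2 of the miR-15/16 strands and at base 1 of miR-103-3p and miR-107-3p. The base after this run is C in the miR-15/16 strands and U in the Pank-hosted ones. Outside the seed the miR-15/16 strands diverge to different degrees. Over whole strands, seed included, 18 of 22 bases are identical between miR-15a and miR-15b and 11 of 22 between miR-16 and miR-497a. Only strands of equal length were compared, which leaves out miR-195a-5p with its 21 nt. Its printed bases are close to those of miR-16-5p.

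Reads that mapped to several places were set aside by the authors, so a locus was counted only through reads that differ from its copies. Mir16-1 and Mir16-2 encode the same guide strand, and so do Mir103-1 and Mir103-2. The longest identical stretch between each pair of copies is shown with the guide strand in capitals, because a read lying inside it cannot be placed.
Mir16-1 and Mir16-2: UAGCAGCACGUAAAUAUUGGCGu
Mir103-1 and Mir103-2: ucaAGCAGCAUUGUACAGGGCUAUGAa
The miR-16 stretch is 23 nt long and reaches 1 base past the guide strand. The miR-103 stretch is 27 nt long and reaches 3 bases before and 1 base past it. Mir107 shares the first 21 of its 23 guide bases with the Mir103 copies. The only difference is G22C, counted from 1 at the 5′ end, with the miR-103-3p base first.

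The opposite arms of the Pank-hosted hairpins are also close, and are printed with the seed in capitals because reads from them could be counted too.
miR-103-1-5p: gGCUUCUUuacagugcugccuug
miR-103-2-5p: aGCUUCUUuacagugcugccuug
miR-107-5p: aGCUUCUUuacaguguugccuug
The Mir103 copies differ there by G1A, with the miR-103-1-5p base first, and miR-103-2-5p and miR-107-5p differ by C16U, with the miR-103-2-5p base first. The deposited counts are per locus and do not say which arm a read came from. In the miR-16 copies the opposite arms are further apart, with 12 of 22 bases identical.

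The loci lie in 3 clusters and 3 single hairpins (mm10, GENCODE M21). Mir15a (chromosome 14, 61632027 to 61632110, minus strand) and Mir16-1 (61631880 to 61631972) lie 54 nt apart in the non-coding gene Dleu2. Mir15a is intronic in every Dleu2 transcript that spans it, and 1 transcript has an exon over Mir16-1. Mir15b (chromosome 3, 69009772 to 69009835, plus strand) and Mir16-2 (69009902 to 69009996) lie 66 nt apart in an intron of Smc4, which encodes a condensin subunit. Mir497 (chromosome 11, 70234717 to 70234800, plus strand) and Mir195a (70235042 to 70235135) lie 241 nt apart with no annotated host on their strand. Mir497 overlaps Mir497b, annotated on the opposite strand.

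The Pank-hosted hairpins are intronic and lie on separate chromosomes. Mir103-1 (chromosome 11, 35782396 to 35782481, plus strand) lies in Pank3. Mir103-2 (chromosome 2, 131288052 to 131288137, plus strand) lies in Pank2. Mir107 (chromosome 19, 34820687 to 34820773, minus strand) lies in Pank1.

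Replicate 1 held 2740332 gene-assigned reads on the RNA strand, 35.4% of all its reads, and replicate 2 held 3207941, 33.3% of all its reads. Reads that mapped to several places made up 40.6% of replicate 1 and 37.9% of replicate 2, and their loci of origin are not recorded in the count tables. Levels are counts per 1000000 gene-assigned reads (CPM), as mean ± SD over n = 2 libraries. A locus was called detected at 10 or more reads in each library, which held for 389 loci and for 9 of the 9 described here. Intervals are exact binomial 95% intervals and cover counting error only. In bulk tissue, fewer cells of a type and less RNA per cell cannot be told apart.

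The question for the levels was which members of the family supplied reads in the cortex. The 9 loci together held 0.774% of gene-assigned reads in replicate 1 (interval 0.764% to 0.785%) and 0.444% in replicate 2 (0.437% to 0.452%), a mean of 0.609 ± 0.233% (n = 2). The 6 miR-15/16 loci held 0.285% and 0.345% of reads in replicates 1 and 2, and the 3 Pank-hosted loci 0.489% and 0.0994%. The higher miR-15/16 sum in replicate 2 rested on Mir195a. The other 5 miR-15/16 loci held 6394 and 6582 reads in replicates 1 and 2, or 0.233% and 0.205%, which is lower in replicate 2, as the Pank-hosted sum was.

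Among the miR-15/16 loci, Mir195a had the highest mean level. It had 1419 reads in replicate 1 and 4478 reads in replicate 2, which are 518 and 1396 CPM, with a mean of 957 ± 621 CPM (n = 2). Its cluster mate Mir497 had 1775 and 2245 reads, 648 and 700 CPM, with a mean of 674 ± 36.8 CPM. Mir195a was the lower of these mates in replicate 1 and the higher in replicate 2, while Mir497 was nearly level.

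Mir16-1 and Mir15a followed, both higher in replicate 1. Mir16-1 had 1771 and 1592 reads in replicates 1 and 2, 646 and 496 CPM, with a mean of 571 ± 106 CPM. Mir15a had 1393 and 1199 reads, 508 and 374 CPM, with a mean of 441 ± 95.2 CPM. Mir15a and Mir16-1 kept the same order in the 2 libraries.

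In the Smc4 cluster the mates stood further apart. Mir15b had 1196 and 1270 reads, 436 and 396 CPM, with a mean of 416 ± 28.7 CPM. Mir16-2 had 259 and 276 reads, 94.5 and 86.0 CPM, with a mean of 90.28 ± 5.995 CPM. Mir16-2 was the lowest of the 6 loci in each library. Its guide strand is the same as that of Mir16-1, so reads lying within that strand are counted for neither copy.

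Among the Pank-hosted loci, Mir107 held nearly all counted reads. It had 13196 reads in replicate 1 and 3122 in replicate 2, 4815 and 973 CPM, with a mean of 2894 ± 2717 CPM, so its SD was nearly as large as its mean. Mir103-2 had 170 and 50 reads, 62.0 and 15.6 CPM, with a mean of 38.8 ± 32.8 CPM. Mir103-1 had 42 and 16 reads, 15.3 and 4.99 CPM, with a mean of 10.2 ± 7.31 CPM. Each of the 3 loci was lower in replicate 2. Reads lying within the guide strand that the Mir103 copies share are counted for neither copy. These levels therefore do not compare miR-107 with all miR-103.

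By mean CPM the order was Mir107, Mir195a, Mir497, Mir16-1, Mir15a, Mir15b, Mir16-2, Mir103-2 and Mir103-1. Neighbours were separated, with the same order in each library and no overlap of mean ± SD, only between Mir15b and Mir16-2 and between Mir16-2 and Mir103-2. Only neighbours were compared, and those within the first 6 places and the last 2 were not separated in this way. The last 2, Mir103-2 and Mir103-1, kept the same order in each library, but their mean ± SD ranges overlap. Among the 389 detected loci Mir107 ranked 58, Mir195a 103, Mir497 122, Mir16-1 131, Mir15a 145, Mir15b 148, Mir16-2 215, Mir103-2 253 and Mir103-1 330.

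**Figure D1:**
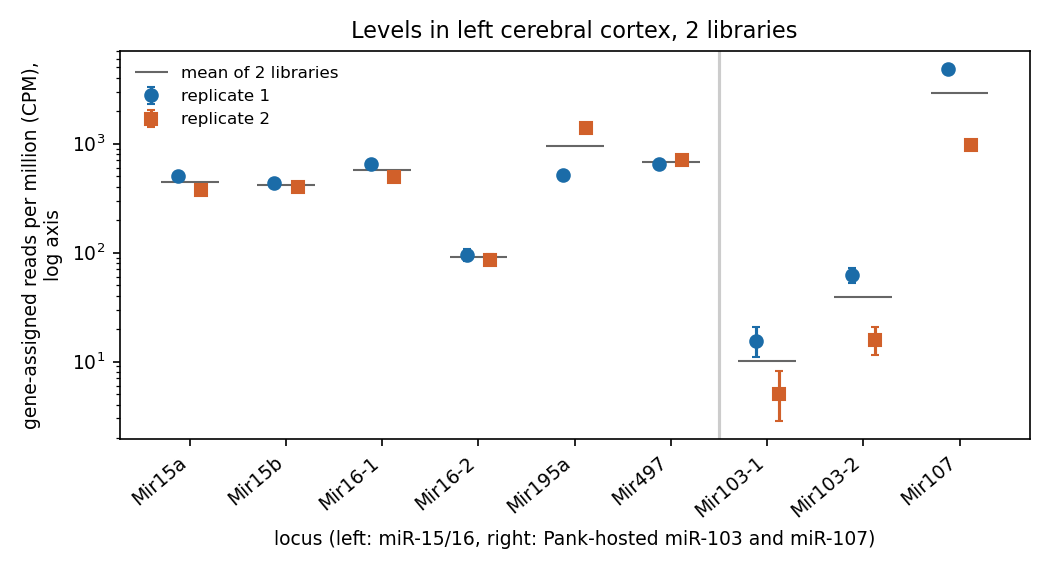
Scaled reads (CPM, log axis) of the 9 loci, with replicate 1 as circles, replicate 2 as squares, exact binomial 95% intervals as bars (smaller than most symbols) and the mean of the 2 libraries as a line. Mir107 lies at 4815 and 973 CPM, the Mir103 copies lie lowest, and only Mir195a and Mir497 have the higher value in replicate 2.

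Single-copy guide strands were set beside duplicated ones, since the counting leaves out reads that fit several loci. The 5 single-copy loci Mir15a, Mir15b, Mir195a, Mir497 and Mir107 averaged 9.54 log2(CPM + 1), and the 4 duplicated loci Mir16-1, Mir16-2, Mir103-1 and Mir103-2 averaged 5.99. The difference was 3.19 log2 units in replicate 1 and 3.89 in replicate 2, a mean of 3.54 ± 0.50 (SD, n = 2). In the column of counts that ignores strand, where Mir497 has 0 reads, the mean difference was 1.65. The difference pools the families and was not alike in them. Mir107 lay far above the Mir103 copies. By mean CPM, duplicated Mir16-1 (571) lay above single-copy Mir15a (441) and Mir15b (416), and below Mir195a (957) and Mir497 (674). No test was made, because the loci share sequences and are not replicates.

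The longest stretch that a locus shares with any other annotated hairpin, on either strand, did not order the levels by itself. It was 12 nt for Mir15b and Mir497, 13 nt for Mir15a and 16 nt for Mir195a, whose partner is Mir195b. It was 23 nt for the Mir16 copies, 24 nt for Mir107 and 27 nt for the Mir103 copies. Mir107 had the highest mean level with a shared stretch of 24 nt, but that stretch stops before base 22 of its guide strand. The stretches of the Mir16 copies and of the Mir103 copies hold the whole guide strand. Length alone therefore does not say whether a read of the guide strand can be placed, and its part in the levels was not tested. Mir107 exceeded Mir103-1 by 7.78 ± 0.61 and Mir103-2 by 6.07 ± 0.27 on the log2(CPM + 1) scale (SD, n = 2). Mir16-1 exceeded Mir16-2 by 2.64 ± 0.17, and Mir103-2 exceeded Mir103-1 by 1.71 ± 0.34. Matches elsewhere in the genome were not searched.

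**Figure D2:**
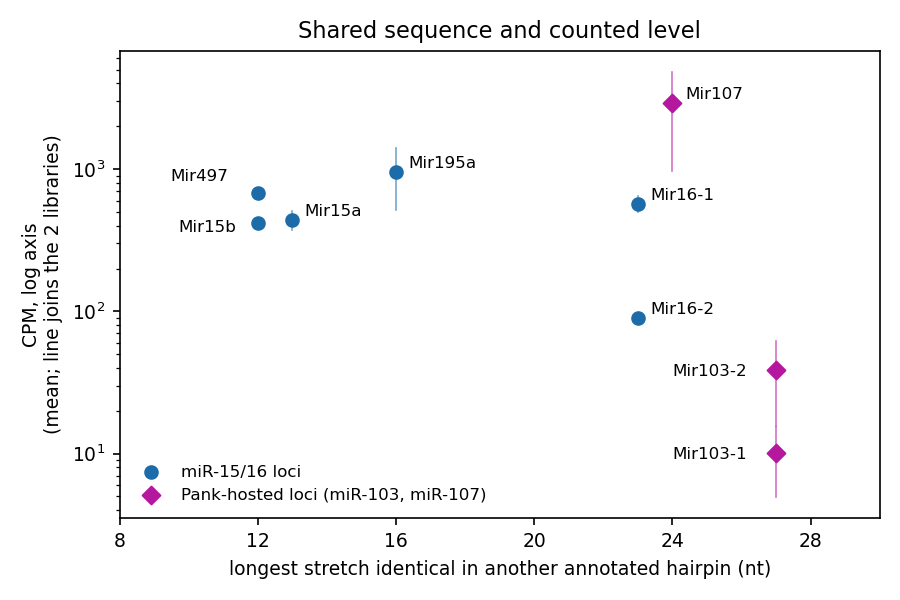
Mean CPM (log axis, with a line joining the 2 libraries) against the longest stretch in nt that is identical in another annotated hairpin. The loci with stretches of 12 to 16 nt lie between 416 and 957 CPM, while those at 23 nt or more run from 10.2 CPM for Mir103-1 to 2894 CPM for Mir107.

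Loci built like Mir107 were then counted, that is, loci with a mature strand whose first 20 bases occur in another annotated hairpin while the whole strand does not. There were 10 such loci, among the 1022 loci with a RefSeq mature strand. Of the 10 only Mir107 was detected, beside 389 of all 2202 loci counted. The 2202 include loci without a RefSeq mature strand, which could not be among the 10, so these shares are not like for like. Mir129b had 4 and 2 reads in replicates 1 and 2 and Mir378c 4 and 3 reads. Mir1187, Mir133b, Mir219b, Mir466i, Mir466j, Mir466k and Mir706 had 0 reads in both libraries. That limits them to 1.09 CPM in replicate 1 and to 0.935 CPM in replicate 2, taking 3 reads as the floor. For these loci too, a read of that strand that ends before the first differing base maps to several places. Its part in their low counts was not tested.

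The next question was how the 9 loci differed between the replicates. Reads at every detected locus were compared between the libraries after TMM scaling (trimmed mean of M values). A two-sided exact binomial test was used, and its p-values were adjusted over the 389 loci after Benjamini and Hochberg. The test compares these 2 libraries and not conditions, and its p-values cover counting error only. Past an adjusted p of 0.05, replicate 2 was lower at 7 of the 9 loci (29.6% of all detected loci), and higher at 1 of the 9 (28.8% of all detected loci). With either direction counted, 8 of 9 loci passed, against 58.4% of all detected loci. The median log2 ratio of replicate 2 over replicate 1 was −0.55 over the 9 loci, −0.31 over the 6 miR-15/16 loci and −0.01 over the 389. Scaled by library totals alone, 6 were lower and 2 higher with a median of −0.38, beside 77 lower, 159 higher and a median of 0.16 over all loci.

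The 3 Pank-hosted loci had the lowest ratios of the 9. Mir107 was 5.58-fold lower in replicate 2 (log2 ratio −2.48, interval −2.54 to −2.42), with an adjusted p by the exact binomial test below the smallest number the software holds. Mir103-2 was 4.49-fold lower (−2.17, interval −2.65 to −1.70; exact binomial test, adjusted p = 3.2e-24). Mir103-1 was 3.46-fold lower (−1.79, interval −2.72 to −0.93; exact binomial test, adjusted p = 1.92e-05). The intervals of the 3 ratios overlap each other. Of the detected loci only 2 had a lower ratio than Mir107, 3 a lower ratio than Mir103-2 and 6 a lower ratio than Mir103-1, members of the 9 included.

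The proportions among the 3 loci were nearly the same in the 2 libraries. Mir107 held 98.4% of their reads in replicate 1 (interval 98.2% to 98.6%) and 97.9% in replicate 2 (97.4% to 98.4%). Of the reads on the Mir103 copies, Mir103-2 held 80.2% in replicate 1 (74.2% to 85.3%) and 75.8% in replicate 2 (63.6% to 85.5%). Because a miR-107 read that ends before base 22 maps to several places, and because the Mir103 copies are seen only through reads that differ between them, these ratios concern countable reads. Read lengths are not in the count tables, and their part in the result was not tested.

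Mir195a was the only locus of the 9 that was higher in replicate 2 past the test. It was 2.39-fold higher (log2 ratio 1.26, interval 1.17 to 1.34; exact binomial test, adjusted p = 1.61e-203), and 13 detected loci had a higher ratio. Mir497 did not pass the test (log2 ratio −0.06, interval −0.15 to 0.03; exact binomial test, adjusted p = 0.252). Scaled by library totals, Mir497 was higher in replicate 2 (log2 ratio 0.11; exact binomial test, adjusted p = 0.0256), so its direction depends on the scaling. Over its alternatives the adjusted p of Mir497 by this exact binomial test ran from 0.0256 to 0.624.

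The 4 loci of the Dleu2 and Smc4 clusters were lower in replicate 2 by smaller amounts. Mir15a had a log2 ratio of −0.62 (interval −0.73 to −0.50) and Mir16-1 of −0.55 (−0.65 to −0.46). Mir15b had a ratio of −0.31 (−0.43 to −0.20) and Mir16-2 of −0.31 (−0.56 to −0.06). Adjusted p-values by the exact binomial test were 9.47e-27, 5.54e-28, 2.18e-07 and 0.0256 in this order. The ratios lie within the spread of all detected loci, whose SD was 0.70 log2 units. Mir16-2 did not pass the exact binomial test when scaled by library totals (log2 ratio −0.14, adjusted p = 0.351), and its adjusted p ran from 0.0261 to 0.351 over its alternatives.

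At least 2-fold differences past the test were found at 4 of the 9 loci, against 11.3% of all detected loci. Mir107, Mir103-1 and Mir103-2 were lower in replicate 2 by this measure, as were 4.88% of all detected loci. Mir195a was higher, as were 6.43% of all detected loci. Mir103-1 and Mir103-2 are copies of the same guide strand and Mir107 a near copy, so the 3 do not count as separate observations.

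**Figure D3:**
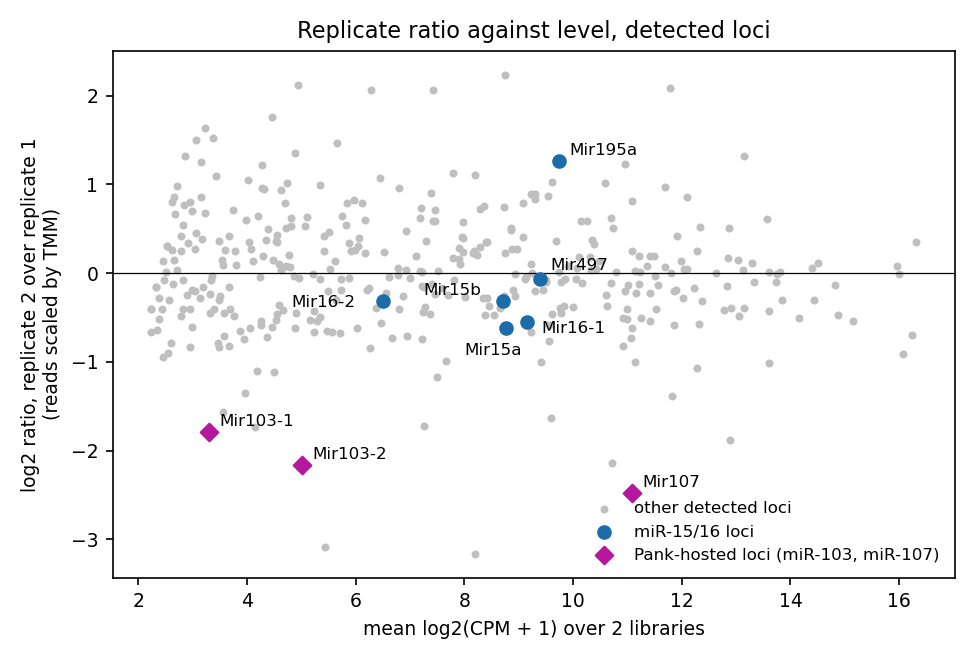
Log2 ratio of replicate 2 over replicate 1 (TMM-scaled reads) against mean log2(CPM + 1) for the 389 detected loci, with the miR-15/16 loci as circles, the Pank-hosted loci as diamonds and the other loci as grey points. The Pank-hosted loci lie between −1.79 and −2.48 at the lower edge, Mir195a lies at 1.26, and the other 5 loci lie between −0.62 and −0.06.

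Cluster mates come from the same stretch of DNA, so their shares were compared within each library, where the scaling cancels. Mir15a held 44.0% of the reads of Mir15a and Mir16-1 in replicate 1 (interval 42.3% to 45.8%) and 43.0% in replicate 2 (41.1% to 44.8%). Mir15b held 82.2% of the reads of Mir15b and Mir16-2 in replicate 1 (80.1% to 84.1%) and 82.2% in replicate 2 (80.2% to 84.0%). In these clusters the shares of the 2 libraries lay inside each other's intervals.

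The Mir195a and Mir497 cluster behaved differently. Mir195a held 44.4% of its reads in replicate 1 (interval 42.7% to 46.2%) and 66.6% in replicate 2 (65.5% to 67.7%), and the intervals did not overlap. Among the 6 miR-15/16 loci, the share of Mir195a was 18.2% in replicate 1 and 40.5% in replicate 2. Mir16-1 held 22.7% and 14.4% of these reads, and Mir497 22.7% and 20.3%. On the log2(CPM + 1) scale, Mir195a minus Mir497 was −0.32 in replicate 1 and 0.99 in replicate 2.

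The copies of miR-16 lie in separate clusters and also kept similar shares. Mir16-1 held 87.2% of the reads on the 2 copies in replicate 1 (interval 85.7% to 88.7%) and 85.2% in replicate 2 (83.5% to 86.8%). These are reads that distinguish the copies and do not give the share of each copy in all miR-16.

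**Figure D4:**
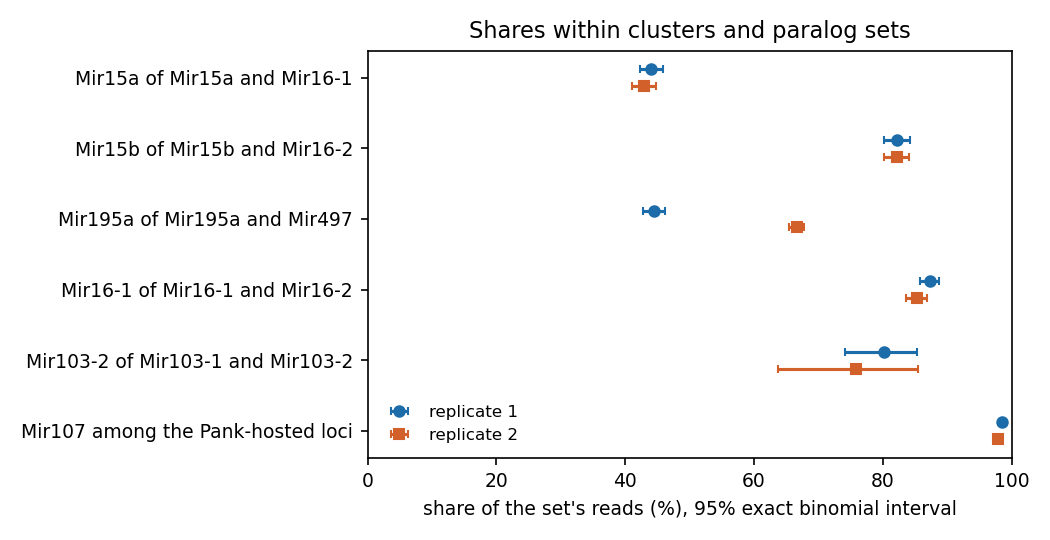
Share of the reads of a cluster or set of copies held by the locus named first (percent, with exact binomial 95% intervals), replicate 1 as circles and replicate 2 as squares. The share of Mir195a in its cluster was 44.4% and 66.6% in replicates 1 and 2, and the intervals of the other 5 shares overlap between the libraries.

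Other loci with the same seed were few among the reads. Beside the 9 loci, 5 of the loci with a RefSeq mature strand have a mature strand with the seed AGCAGCA, namely Mir322, Mir195b, Mir6342, Mir6353 and Mir6419, and none has GCAGCAU. Mir322, the rodent counterpart of human miR-424 on the X chromosome, had 6648 and 4975 reads in replicates 1 and 2, 2426 and 1551 CPM, with a mean of 1988 ± 619 CPM. Its guide strand is printed for comparison with those above, seed in capitals.
miR-322-5p: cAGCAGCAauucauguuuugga
The other 4 had 0 reads in both libraries. Mir322 was lower in replicate 2 (log2 ratio −0.82; exact binomial test, adjusted p = 1.2e-202).

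Mir503, the cluster mate of Mir322, whose bases 2 to 8 are AGCAGCG, had 139 and 149 reads. Its ratio did not pass the test (log2 ratio −0.30; exact binomial test, adjusted p = 0.126). The 7 counted loci with the seed AGCAGCA, Mir322 included, had a summed share of 0.528% in replicate 1 (interval 0.519% to 0.536%) and of 0.4999% in replicate 2 (0.492% to 0.508%). Mir322 supplied 46.0% of these reads in replicate 1 and 31.03% in replicate 2. The counted sum of this seed group thus differed less between the libraries than Mir195a or Mir322 did. It leaves out miR-16 reads that fit both copies, and it holds reads of either arm. The sum and the share of Mir322 therefore do not measure all strands with this seed.

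Loci closest to Mir107 in mean log2(CPM + 1) and log2 ratio, among those with at least 100 reads on average, were Mir219a-2, Mir98 and Mir221, over 2 libraries. Mir219a-2, known from oligodendrocytes, had 9151 and 2736 reads and a ratio of −2.14, at a distance of 0.49. Mir98 had a ratio of −1.38 at 1.33 and Mir221 a ratio of −0.997 at 1.48. Only Mir219a-2 was near.

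Marker lists of cell types in the tissue were read beside these differences. The 3 oligodendrocyte loci Mir219a-1, Mir219a-2 and Mir338 took 0.428% of the reads of replicate 1 and 0.148% of those of replicate 2, and 2 of them were lower in replicate 2 past the test. Most of these reads lay in Mir219a-2, with 9151 and 2736 reads in replicates 1 and 2. Mir219a-1, with 35 reads in each library, did not pass the test. The 3 erythroid loci Mir451a, Mir144 and Mir486 held 0.0976% and 0.0585%, and 1 of them, Mir451a, was lower past the test, at 908 and 510 CPM. Mir144 went the other way, at 43.4 and 53.6 CPM, and neither it nor Mir486 passed the test. The 3 endothelial and mural loci Mir126a, Mir143 and Mir145a held 2.12% and 1.36%, with 2 lower and 1 higher past the test. Most of that fall lay in Mir126a, at 16740 and 9390 CPM, while Mir145a was the higher one. The summed shares of these lists were lower in replicate 2, as were the Pank-hosted loci, and their part in that result was not tested.

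The choroid plexus loci Mir204 and Mir448 held 0.0462% and 0.0941% of reads in replicates 1 and 2, and both were higher in replicate 2 past the test. The 5 microglial and leukocyte loci held 0.156% and 0.189%, and of the 4 detected 1 was higher and 2 were lower past it. The median log2 ratio of those 4 was −0.17, and the higher sum rested on Mir150, with 1419 and 3426 reads. Mir223, the locus of this list that was not detected, had 3 reads in replicate 1 and 45 in replicate 2, and was not tested. The 12 neuron-enriched loci held 3.34% and 4.25%. Of the 8 detected 3 were higher and 3 lower past the test, with a median log2 ratio of 0.12. The higher sum rested on Mir128-1, at 5376 and 15160 CPM, while Mir132, Mir138-1 and Mir138-2 were lower. The summed shares of these 3 lists were higher in replicate 2, as was Mir195a, and their part in that result was not tested. Of the neuronal markers Mir124a-3 had 0 reads in replicate 1 and 7 in replicate 2. The other copies of miR-124 had 5 to 12 reads, and their guide strand too is shared by several loci. No locus of these lists was at 0 in both libraries.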

How the data were processed

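Small RNA libraries of 1 group with 2 biological replicates were used. The deposited files are raw counts of reads for each microRNA gene. The authors mapped to mm10 and counted on GENCODE M21, per the file list deposited with each library. For the trimmer, aligner and counter, names were not given in the sources used here. Of 3 unnamed count columns, judged from their values, column 2 ignores strand, column 3 takes the RNA strand and the last takes its opposite. Column 3 was used, since Mir497 has 0 reads in column 2. Library sizes leave out 4 rows without a gene name. Of these, unmapped reads were 18.1% and 22.8% of replicates 1 and 2, and reads on no microRNA gene 5.93% and 6.03%.

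CPM values, exact binomial intervals and tests were computed with Python 3.11.15 and scipy 1.17.1. Scaling used TMM from edgeR 4.0.16, or DESeq2 1.42.0 size factors as an alternative. All 2202 identifiers matched GENCODE M21. Hairpins were taken from GENCODE and mature strands from RefSeq (GRCm38.p6). A count of 0 allows up to 3 reads.

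The members, lists and tests were chosen with earlier results of these data known. Named loci are the 9 members, their seed relatives, loci built like Mir107, the 3 loci nearest to Mir107 and the marker lists. Alternatives were the column without strand, other scalings, minimum counts, a pseudocount, another denominator, another length of shared start and each replicate left out.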

Additional observations from a re-analysis of the deposited data

How the results depend on the processing

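Over 6 alternatives the number of the 9 loci past the exact binomial test was 7 or 8. Only 8 of the 9 could be tested in the column without strand and with a minimum of 50 reads. Of all loci tested, the number past it ran from 211 to 240, but the number tested also changed. It was 211 of 283 with a minimum of 50 reads and 240 of 752 with no minimum. The median log2 ratio of the 9 loci was −0.38 with library totals and −0.42 with a minimum of 50 reads, which leaves out Mir103-1. Mir16-2 did not pass with library totals (log2 ratio −0.14) or with no minimum (log2 ratio −0.29), and Mir497 passed with library totals. In the column without strand Mir497 had 0 reads, and the difference between single-copy and duplicated loci was then 1.65. The row for ambiguous reads held 190370 and 216847 reads of replicates 1 and 2 in that column and 0 in the RNA strand column, and the loci with more reads in the RNA strand column gained the same numbers. With all reads as the denominator the 9 loci held 0.211%. Leaving out a replicate gave 0.444% to 0.774% for their share of gene-assigned reads, and 3.19 to 3.89 for the difference between single-copy and duplicated loci. With the first 18 bases shared in place of 20, the loci built like Mir107 numbered 28, and with 21 bases 9. No paired analysis was possible because there is only 1 group. Depth limits Mir103-1, with 16 reads in replicate 2.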

Other observations

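Reads on the opposite strand of the 9 loci were nearly absent. Mir497 had 2 such reads in replicate 1 and 0 in replicate 2, which are the reads counted for Mir497b on its own strand, and the other 8 loci had 0 in both. A count of 0 allows up to 3 reads in each library.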
